A study of Mus musculus with 12 samples.

Results

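In mouse colorectal tissue, 71 custom-design array probes had a lower signal 2 weeks after azoxymethane (AOM), at the end of the first course of dextran sulfate sodium (DSS), than both before treatment and after AOM alone. They were selected on these arrays from the deposited log2 values, and so the drop at 2 weeks is what chose them and not a finding. A probe was kept when its 2-week mean was at least 1 below both the 0-week and the 1-week mean, every 2-week array lay below every 0-week and 1-week array, and its 0-week mean was at least 5. Of 145548 probes on the array, 78857 carried the custom prefix and lay outside a block of 15000 consecutive ID numbers that was left out. Of these, 14839 had a 0-week mean of at least 5, and the 71 probes were 0.478% of them. By 10 weeks, 33 of the 71 had means at least 1 below both starting means with no overlap of the arrays. Another 10 had a mean at least 1 above that at 2 weeks with no overlap of the arrays. The other 28 were undecided by the definitions given below. The 10-week mean was above the 0-week mean in 7 of the 71.

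The samples were colorectal tissue of male C57BL/6 mice, hybridised as cyanine-3 labelled RNA to 12 arrays of 1 colour, 3 for each time. The 0-week mice were untreated. The 1-week mice had received AOM at 10 mg/kg and no DSS, although the labels call their tissue colitis. The 2-week mice had received the same AOM injection and 1 course of 2% DSS in the drinking water, and the 10-week mice the same injection and 3 such courses, with tissue that the labels call tumour. The labels do not say whether the arrays of a time came from separate animals, so the tests measure the spread between arrays, part of which may be technical. The untreated arrays analysed here all came from 0 weeks, so time and treatment cannot be told apart.

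AOM is a carcinogen that alkylates DNA after activation in the liver and colon. DSS damages the lining of the large bowel, and repeated courses drive cycles of ulceration, inflammation and regrowth in which AOM-initiated cells form tumours. During such an injury the tissue changes both in its cell make-up and in what each cell transcribes, and in bulk tissue fewer cells of a type and less RNA per cell cannot be told apart. The study's title speaks of long non-coding RNAs, transcripts that do not encode proteins, and of messenger RNAs. The files used here do not say to which of these a custom probe belongs, pair it with no gene, and give it no position in the genome. The probes are therefore called by their ID numbers, and no cell type marker could be read among them.

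Each probe was a 60-base oligonucleotide printed as 1 spot per array. The sequences below are those of the probes on which the results turn, 5′ to 3′ as in the scanner files, and they are shown because the sequence is the only identity these probes have. The first 3 had a higher signal at 10 weeks than at 0 weeks:
CUST_OEV3_073767: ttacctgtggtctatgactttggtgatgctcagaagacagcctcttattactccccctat
CUST_OEV3_005854: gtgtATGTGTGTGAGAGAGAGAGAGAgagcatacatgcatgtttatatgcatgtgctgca
CUST_OEV3_092626: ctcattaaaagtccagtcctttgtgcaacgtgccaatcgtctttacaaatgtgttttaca
The capitals in CUST_OEV3_005854 mark 22 bases that it shares with another probe, described below. The next 3 also had a higher signal at 10 weeks than at 2 weeks, with 10-week means within 1 of the 0-week means:
CUST_OEV3_051980: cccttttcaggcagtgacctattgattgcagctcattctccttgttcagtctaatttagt
CUST_OEV3_074994: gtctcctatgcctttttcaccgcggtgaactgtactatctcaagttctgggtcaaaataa
CUST_OEV3_069613: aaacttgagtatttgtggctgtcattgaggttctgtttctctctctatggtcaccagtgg
The next 7 stayed low at 10 weeks, and they include the brightest of the 71:
CUST_OEV3_023226: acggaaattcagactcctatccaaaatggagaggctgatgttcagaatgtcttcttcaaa
CUST_OEV3_051271: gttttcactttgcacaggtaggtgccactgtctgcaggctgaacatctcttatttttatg
CUST_OEV3_069888: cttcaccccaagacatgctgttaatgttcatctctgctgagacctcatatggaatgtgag
CUST_OEV3_017654: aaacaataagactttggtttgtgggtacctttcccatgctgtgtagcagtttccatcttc
CUST_OEV3_032748: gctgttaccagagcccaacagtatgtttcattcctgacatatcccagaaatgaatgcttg
CUST_OEV3_070405: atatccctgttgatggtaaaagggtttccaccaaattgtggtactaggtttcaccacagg
CUST_OEV3_001509: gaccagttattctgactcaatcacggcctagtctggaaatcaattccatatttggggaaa
The last pair fell far at 2 weeks and was undecided at 10 weeks:
CUST_OEV3_039021: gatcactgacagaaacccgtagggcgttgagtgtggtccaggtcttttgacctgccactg
CUST_OEV3_047545: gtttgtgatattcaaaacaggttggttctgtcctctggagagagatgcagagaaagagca

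Most of the 71 probes were dim. Levels here are the deposited log2 values, on which the 0-week means of the 71 had a median of 5.65, against 6.61 over the 14839 custom probes with a 0-week mean of at least 5. The 0-week mean was under 6 for 45 of the 71 and at least 7 for 16. At 0 weeks, 70 to 71 of them per array were well above background by the scanner software's flag, and at 1 week 65 to 69. At 2 weeks the count was 28, 51 and 22 on replicates 1, 2 and 3, and at 10 weeks it was 60, 48 and 60. At 2 weeks 16 probes were well above background on no array, and 20 were on all 3. For those 16 the 2-week value is a bound. In 15 of them the 2-week signal was lower than the 0-week signal by at least 2.20-fold to 3.24-fold. Against 1 week, the bounds of these 15 ran from 1.14-fold to 3.54-fold, with a median of 1.84-fold. The other, CUST_OEV3_038513, was well above background on no 1-week array and on only 1 of 3 at 0 weeks. Its bound against 0 weeks, 2.42-fold, therefore rests on that array.

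The 2-week arrays did not agree closely with one another. The median over the 71 was 5.76, 5.63 and 5.57 on the 0-week replicates 1, 2 and 3, while it was 5.42, 5.43 and 5.59 at 1 week and 3.89, 4.68 and 4.05 at 2 weeks. Replicate 2 was the highest 2-week array for 55 of the 71 probes. The median processed intensity over all probes, before any scaling, is given in linear units and not as log2. It was 5.08, 5.96 and 4.97 on the 2-week replicates 1, 2 and 3, so replicate 2 was the brightest there too. On the 10-week replicates 1, 2 and 3 that linear median was 11.2, 10.35 and 10.09, above the 4.97 to 6.69 of the other arrays. The part of these brighter arrays in the 10-week results was not tested beyond other scalings of the signal. Without 2-week replicate 2 the rule finds 194 probes in place of 71, 68 of them shared. The part of this array in the results below was not tested beyond leaving it out.

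As a description of the choice, the 2-week means were 1.05 to 3.19 below the 0-week means on the deposited scale, with a median of -1.59, and 1.00 to 3.82 below the 1-week means, with a median of -1.33. Over the 14839 custom probes the medians were -0.13 and -0.02. On the scaled scanner signal, limma called 58 of the 70 members it tested lower at 2 weeks than at 0 weeks (Benjamini-Hochberg adjusted p under 0.05 over all probes tested), and 4.75% of all 62391 tested probes were called lower in that comparison. Against 1 week it called 11 of 70, with 0.446% of all tested probes. Both comparisons were used by the rule. The untested probe, CUST_OEV3_038513, was well above background on 1 of the 12 arrays and read 4.05, 7.87 and 3.30 at 0 weeks, so its place among the 71 rests on 1 array.

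The thresholds cut through a continuous range. The members nearest to the size threshold were CUST_OEV3_033533, 1.00 below the nearer of its 0-week and 1-week means, and CUST_OEV3_008361 at 1.01. Just outside were CUST_OEV3_064515 and CUST_OEV3_065400, each with a smaller fall of 0.998 and 0.997. On the separation of arrays, CUST_OEV3_069613 and CUST_OEV3_041603 passed with gaps of 0.008 and 0.015, while CUST_OEV3_067730 and CUST_OEV3_035314 overlapped, with gaps of -0.003 and -0.034. On the level, CUST_OEV3_021895 and CUST_OEV3_001509 had 0-week means of 5.001 and 5.011 inside the threshold, and CUST_OEV3_056656 and CUST_OEV3_093228 had 4.989 and 4.978 outside it. In all, 25 custom probes met the size but had overlapping arrays, and 416 met both but missed the level. With the same 0-week level, 11 custom probes met the mirror image of the rule, a rise of the same size. That level leaves out rises from a low start. Without the level, 487 custom probes met the fall and 315 met the rise. Among 25675 catalogue probes at the same level, 155 met the rule and 191 its mirror image.

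Between 1 week and 0 weeks, the comparison of AOM alone with no treatment, the test called none of the 70 members it covered. The rule used the arrays of both times and required each to lie above the 2-week arrays, which selects against probes that differ between them. It set a level at 0 weeks alone, which favours 0-week values over 1-week values. Nothing about the effect of AOM alone is therefore read from these values. The 1-week mean was below the 0-week mean for 46 probes and above it for 23, with 2 equal after rounding to 2 decimals and a median difference of -0.21 on the deposited scale, against -0.11 over the 14839 custom probes. Limma called 0 of the 70 in either direction (Benjamini-Hochberg adjusted p under 0.05), while 0.978% of all tested probes were called, and 5 of the 70 had an unadjusted p under 0.05. The 3 with 1-week means at least 1 lower were CUST_OEV3_038513, CUST_OEV3_051980 and CUST_OEV3_069888. For CUST_OEV3_069888 the 1-week arrays read 5.53, 6.88 and 5.11, against 7.24, 6.79 and 7.12 at 0 weeks. Its arrays overlapped between the times, since the second 1-week array lay above the lowest 0-week array.

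At 10 weeks the 71 probes were sorted into classes by thresholds. A probe was called recovered when its 10-week mean was at least 1 above the 2-week mean with every 10-week array above every 2-week array, and stayed low when its 10-week mean was at least 1 below both starting means with every 10-week array below every 0-week and 1-week array. By these definitions 10 probes recovered, 33 stayed low, 0 met both and 28 met neither. The number recovered rested on the scale and on single arrays, as the rule and the classes together gave 41 recovered on the scaled processed signal, 59 without 2-week replicate 2, and 22 without 2-week replicate 1 or without 1-week replicate 2. The number that stayed low was 28 on the scaled processed signal and 58 without 2-week replicate 2. The totals changed too, so these counts are not shares of 71. The rule found 101 probes on the scaled processed signal and 194 without 2-week replicate 2. It found 70 without 2-week replicate 1 and 92 without 1-week replicate 2. Leaving out an array by construction loosens the requirement of no overlap. Among the 14839 custom probes, 4.15% met the first criterion and 2.7% the second. The 71 had been chosen for low 2-week and high 0-week values, which by itself raises the chance of both, so nothing about the 71 is read from those shares.

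On the scaled scanner signal, limma called 34 of the 70 tested members lower at 10 weeks than at 0 weeks and 3 higher (Benjamini-Hochberg adjusted p under 0.05). Over all tested probes 10.4% were called lower and 22.8% higher, and these shares depended on the scaling, with 21.4% lower and 10.9% higher when the percentile was taken over all probes and 15.4% lower and 13.9% higher with quantile normalization. The median difference was -0.88 over the 70 members and 0.23 over all tested probes. With the percentile taken over all probes these medians were -1.23 and -0.12, so that scaling shifts every 10-week difference downwards. Of the 34 lower, 32 were probes that stayed low and 2 were undecided, CUST_OEV3_047545 and CUST_OEV3_060068. The 3 higher were CUST_OEV3_073767, CUST_OEV3_005854 and CUST_OEV3_092626. All 34 falls and all 3 rises were called under each of 6 scalings of the signal. Over the 12 fits with 1 array removed, 21 of the 34 and 2 of the 3 were called each time, and the count of falls ranged from 23 to 35. The 0-week arrays served both the choice and this comparison, and the choice favours high 0-week values. All 10-week arrays lay on a slide of their own, as did all 2-week arrays, so slide and group cannot be told apart.

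Against 2 weeks, limma called 25 of the 70 members higher at 10 weeks and 2 lower (Benjamini-Hochberg adjusted p under 0.05). Over all tested probes 23.5% were called higher and 7.56% lower, and the median difference was 0.83 over the members and 0.27 over all. The 25 were the 10 recovered probes and 15 of the 27 tested undecided ones. The 10 recovered probes were defined on these same arrays, so their calls are a second view of one measurement on another scale. The calls of the undecided probes depended on the scaling. The 15 became 6 with the percentile taken over all probes, 2 with quantile normalization, 2 with cyclic loess, 0 with normexp and 2 in the deposited values. The split over the 70 members was then 16 higher and 6 lower, 12 and 6, 12 and 2, 9 and 2, and 12 and 5 in the same order of scalings. The median difference of the members was 0.41, 0.25, 0.30, 0.02 and 0.24 in that order. Over all tested probes the split turned to 9.27% higher and 22.1% lower with the percentile over all probes, and to 9.62% higher and 11.3% lower with quantile normalization. Only 9 of the 25 were called under all 6 scalings, and all 9 were recovered probes. The choice favours low 2-week values, which raises the chance of a higher 10-week signal.

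The probe with the largest difference between 10 and 2 weeks was CUST_OEV3_073767. It read 6.73, 8.55 and 8.19 at 0 weeks, 8.81, 7.91 and 9.27 at 1 week, 4.98, 4.94 and 4.60 at 2 weeks, and 9.76, 10.28 and 9.81 at 10 weeks on the deposited log2 scale. Every 10-week array lay above every array of the other times, and every 2-week array lay below them. On the scaled signal the 10-week level was 5.32 above the 2-week level (SE 0.47, limma Benjamini-Hochberg adjusted p = 7.3e-05), a difference that was called under all 6 scalings. It was 2.12 above the 0-week level (SE 0.47, limma adjusted p = 0.00658). This probe was well above background on all 12 arrays.

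CUST_OEV3_092626 showed the same order of times at a lower level. Its arrays read 5.50, 4.86 and 5.61 at 0 weeks, 6.06, 5.12 and 5.86 at 1 week, 4.51, 4.20 and 4.05 at 2 weeks, and 6.72, 6.86 and 6.97 at 10 weeks. All 10-week arrays were above all others, and the 2-week arrays were below all others. The 10-week level was 3.01 above the 2-week level (SE 0.30, limma adjusted p = 0.000153) and 1.79 above the 0-week level (SE 0.30, limma adjusted p = 0.00152). At 2 weeks it was well above background on 1 of 3 arrays.

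CUST_OEV3_005854 read 6.25, 5.89 and 5.32 at 0 weeks, 5.65, 5.58 and 6.23 at 1 week, 3.87, 4.25 and 5.16 at 2 weeks, and 7.39, 6.33 and 7.86 at 10 weeks. The 10-week arrays again lay above the others, though the lowest of them, at 6.33, was close to the highest 0-week array. The difference at 10 weeks was 3.13 from 2 weeks (SE 0.44, limma adjusted p = 0.00105) and 1.58 from 0 weeks (SE 0.44, limma adjusted p = 0.0184). The sequence is rich in GA repeats, and 22 of its bases, in capitals, recur in a second custom probe:
CUST_OEV3_048467: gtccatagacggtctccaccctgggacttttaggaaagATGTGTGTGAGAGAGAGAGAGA
That probe averaged 3.90 (0 weeks), 3.89 (1 week), 4.24 (2 weeks) and 3.85 (10 weeks), and it did not meet the rule.

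The 7 remaining recovered probes had 10-week means within 1 of their 0-week means. For CUST_OEV3_051980 the 10-week arrays read 5.12, 5.01 and 5.14, against 3.48, 1.76 and 1.84 at 2 weeks, when none of the 3 was well above background. The 10-week signal was at least 3.21-fold above the 2-week bound, and limma gave a difference of 3.03 (SE 0.33, adjusted p = 0.000262). Against 0 weeks, where the arrays read 5.23, 4.84 and 5.42, the limma difference was 0.30 (SE 0.33, adjusted p = 0.495). CUST_OEV3_074994 averaged 5.55 ± 0.55 at 10 weeks and 3.06 ± 1.49 at 2 weeks (SD, n = 3 each), with no 2-week array well above background and a 10-week signal at least 4.17-fold above the bound. CUST_OEV3_069613 averaged 5.54 ± 0.62 at 10 weeks and 3.73 ± 0.84 at 2 weeks. CUST_OEV3_049898, the brightest of the remaining 4, averaged 8.17 ± 0.53 at 0 weeks, 6.90 ± 0.66 at 2 weeks and 8.63 ± 0.36 at 10 weeks. These 7 did not pass the test against 0 weeks, with limma differences of 0.03 to 0.90 and adjusted p from 0.147 to 0.955, which does not show that they had returned to the same level. The sign of these differences depended on the scale. On the deposited scale the 10-week mean was below the 0-week mean in 3 of the 7, CUST_OEV3_051980 among them at -0.08.

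Among the 33 probes that stayed low, the brightest was CUST_OEV3_023226. It read 11.44, 11.11 and 11.02 at 0 weeks, 10.27, 10.98 and 10.27 at 1 week, 8.10, 10.19 and 8.31 at 2 weeks, and 6.71, 6.48 and 8.21 at 10 weeks. The 10-week arrays overlapped the 2-week arrays and lay below all 0-week and 1-week arrays. The limma difference was -3.98 from 0 weeks (SE 0.55, adjusted p = 0.000601) and -1.62 from 2 weeks (SE 0.55, adjusted p = 0.0466). The second of these was called under 4 of 6 scalings.

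CUST_OEV3_051271 went lower again between 2 and 10 weeks. Its 10-week arrays read 5.16, 3.28 and 5.62, against 6.30, 7.29 and 7.68 at 2 weeks, with no overlap. The limma difference was -2.05 (SE 0.54, adjusted p = 0.0166), and this was the one further fall called under all 6 scalings, although none of the further falls survived the removal of each array in turn. Against 0 weeks, where the arrays read 8.56, 8.32 and 8.65, the difference was -3.55 (SE 0.54, adjusted p = 0.000928). On the deposited scale 29 of the 33 had a 10-week mean below the 2-week mean, 6 of them with no overlap of the arrays. The 10-week mean was lower by at least 1 in 9 of the 33, and 3 of these 9 also had no overlap. These counts depend on the scale. The median difference of the 33 between 10 and 2 weeks was -0.61 on the deposited scale and -0.14 on the scaled scanner signal. On the latter, limma called 2 of the 33 lower.

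CUST_OEV3_069888 averaged 3.07 ± 0.30 at 10 weeks and 7.05 ± 0.23 at 0 weeks (SD, n = 3 each). No 10-week array was well above background, so the 10-week signal was at least 9.73-fold lower. This was the largest bound among the 6 members with no 10-week array above background, whose median was 2.60. The limma difference of CUST_OEV3_069888 was -3.56 (SE 0.52, adjusted p = 0.000802). It used the 10-week readings as measured and is no test of the bound. For CUST_OEV3_070405 the 10-week arrays read 2.72, 1.40 and 2.68, against 5.40, 5.47 and 5.56 at 0 weeks, and the bound was 3.16-fold. The limma difference of CUST_OEV3_070405, with the same limit, was -2.75 (SE 0.42, adjusted p = 0.000938). Its 2-week arrays, at 1.67, 2.24 and 2.96, were not above background either, so a change between 2 and 10 weeks could not be seen. CUST_OEV3_001509 was likewise dark at both later times, at 1.93 ± 0.15 at 10 weeks, against 5.01 ± 0.49 at 0 weeks, with a bound of 2.27-fold.

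A further 3 bright probes that stayed low were well above background on all 12 arrays. CUST_OEV3_032748 read 8.08, 5.16 and 6.77 at 10 weeks, against 9.48, 9.60 and 9.27 at 0 weeks, a limma difference of -2.68 (SE 0.78, adjusted p = 0.0232). Its 10-week arrays were widely spread and all lay below the 0-week arrays. CUST_OEV3_017654 read 5.11, 4.50 and 5.76 at 10 weeks, against 8.90, 7.79 and 7.54 at 0 weeks, with a difference of -2.69 (SE 0.48, adjusted p = 0.00226). CUST_OEV3_058205 read 7.10, 6.63 and 7.52 at 10 weeks, against 10.07, 9.36 and 9.23 at 0 weeks, with a difference of -2.39 (SE 0.35, adjusted p = 0.000744). The arrays of the 2 times did not overlap for any of these 3. Over the 32 called lower, the limma differences ran from -3.98 to -0.90 with a median of -2.14. The probe that stayed low without passing the test was CUST_OEV3_051447, at -1.09 (SE 0.40, limma adjusted p = 0.0575).

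The 28 undecided probes lay between their 2-week and 0-week means at 10 weeks in every case. Their group means had a median of 5.21 at 0 weeks, 3.87 at 2 weeks and 4.47 at 10 weeks. In 16 of them every 10-week array was below every 0-week and 1-week array, and in 4 every 10-week array was above every 2-week array. CUST_OEV3_039021 had the widest spread between 10-week arrays, with 6.24, 6.08 and 5.81 at 0 weeks, 1.38, 4.26 and 3.85 at 2 weeks, and 5.53, 3.19 and 6.10 at 10 weeks. Its 10-week arrays overlapped both other times, and the limma differences were 2.16 from 2 weeks (SE 0.79, adjusted p = 0.0575) and -0.77 from 0 weeks (SE 0.79, adjusted p = 0.475). At 2 weeks it was well above background on 1 of 3 arrays. CUST_OEV3_047545 read 2.52, 3.07 and 4.10 at 10 weeks, against 5.26, 5.09 and 5.01 at 0 weeks, a limma difference of -1.38 (SE 0.47, adjusted p = 0.0418). It was above background on 1 of 3 arrays at 10 weeks and on 0 of 3 at 2 weeks. Its 2-week fall is therefore a bound, of at least 2.53-fold from 0 weeks and 1.26-fold from 1 week.

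Probes that share sequence show how well 2 spots agree. Within the 71, the 1 pair with shared bases was shifted by 1 base, and the 59 shared bases are in capitals:
CUST_OEV3_073542: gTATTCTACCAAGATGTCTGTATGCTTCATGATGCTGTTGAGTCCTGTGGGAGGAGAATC
CUST_OEV3_073545: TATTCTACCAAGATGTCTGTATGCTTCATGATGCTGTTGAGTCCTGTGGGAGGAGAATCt
CUST_OEV3_073542 averaged 6.22 (0 weeks), 6.38 (1 week), 5.17 (2 weeks) and 5.41 (10 weeks). CUST_OEV3_073545 averaged 6.14, 6.28, 5.09 and 5.52 at the same times. Both were undecided, and as 2 measurements of 1 target they are not independent members.

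A second case agreed less well. CUST_OEV3_059480 is identical over all 60 bases to CUST_OEV3_059482, which is not among the 71, and shares the 34 bases in capitals with a further probe:
CUST_OEV3_059480: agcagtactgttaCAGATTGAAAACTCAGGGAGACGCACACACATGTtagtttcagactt
CUST_OEV3_056282: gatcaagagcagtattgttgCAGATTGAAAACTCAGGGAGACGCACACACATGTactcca
CUST_OEV3_059480 read 4.83, 5.39 and 5.16 at 0 weeks, 4.93, 4.75 and 4.82 at 1 week, 3.78, 2.80 and 4.36 at 2 weeks, and 3.54, 1.41 and 3.33 at 10 weeks. Its identical twin read 4.58, 5.32 and 5.10 at 0 weeks, 5.03, 4.66 and 4.70 at 1 week, 3.95, 4.17 and 4.47 at 2 weeks, and 3.91, 3.21 and 4.57 at 10 weeks. The same sequence thus met the rule at one spot and missed it at the other, and on the second 10-week array the member read 1.41 and its twin 3.21. That 1.41 was among the lowest readings of the 71 on that array, which went down to 1.38. CUST_OEV3_056282 averaged 5.01 (0 weeks), 4.67 (1 week), 4.54 (2 weeks) and 2.62 (10 weeks). CUST_OEV3_059480 was well above background on 1 of 3 arrays at 10 weeks and on 0 of 3 at 2 weeks.

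Some members had neighbouring ID numbers. CUST_OEV3_051963 and CUST_OEV3_051964 are consecutive and share no run of 20 bases:
CUST_OEV3_051963: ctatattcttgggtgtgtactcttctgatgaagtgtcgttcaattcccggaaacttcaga
CUST_OEV3_051964: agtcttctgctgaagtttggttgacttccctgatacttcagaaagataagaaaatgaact
CUST_OEV3_051963 averaged 8.94 (0 weeks), 8.99 (1 week), 7.48 (2 weeks) and 6.96 (10 weeks), and CUST_OEV3_051964 averaged 8.17, 8.65, 6.98 and 6.61. On both, the second 10-week array was the lowest, at 5.84 and 5.77, and the first the highest, at 8.15 and 7.62. CUST_OEV3_052817 and CUST_OEV3_052818, also consecutive, averaged 3.13 and 4.85 at 10 weeks, against 5.90 and 7.18 at 0 weeks. All 4 stayed low, with limma adjusted p of 0.0146, 0.0216, 0.00419 and 0.0016 against 0 weeks. Of the 138 other custom probes with a next-door ID number, 42 reached the level threshold. These could not meet the rule, since custom probes that met it were members and were left out of this count. The count therefore does not show whether neighbours share the drop. Those 42 had a median 2-week minus 0-week difference of -0.42, against -0.13 over the 14839. The files do not say whether neighbouring ID numbers mean neighbouring targets.

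In base composition the 71 resembled the rest. The median GC content was 43.3% in the 71 and in the 14839, and a CG dinucleotide occurred in 40.8% of the 71 and 41.2% of the 14839. The polyadenylation hexamer AATAAA, searched on the printed strand, occurred in 1 of the 71 (1.4%) and in 3.9% of the 14839. No probe matched over its whole length any of 32851 promoter windows or 2743 microRNA sequences from RefSeq, and the longest shared run was 23 bases. On the array itself, 29 of the 71 spots (40.8%) lay in the top left quadrant, with 25.6% of the 14839 there, and 14 of the 71 (19.7%) lay in the 17 leftmost of the 170 columns, with 9.5% of the 14839. The median 2-week minus 0-week difference of the 14839 was -0.16 in that quadrant and -0.14 in those columns, against -0.13 overall. The part of spot position in the choice of the 71 was not tested.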

How the data were processed

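Per the file headers, the authors scanned 1-colour Agilent arrays and used Agilent Feature Extraction 10.7.1.1 to obtain each spot's intensity. Background subtraction, detrending and a surrogate for low values were part of that software's processed intensity, as deposited. The authors also deposited a table of log2 values per probe, whose normalization is not given in the sources used here. Its 12 columns share their quantiles, so its scale was taken as quantile normalized. The deposited log2 values chose the members and give the levels printed. The members, lists and thresholds were chosen with earlier results of these data known.

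For tests, control spots and flagged outlier spots were left out and the log2 processed signal was scaled to each array's 75th percentile, taken over the 42363 probes that every one of the 12 arrays detected well above background. The 62391 probes so detected by at least 3 arrays were fitted in R 4.3.3 by lmFit and eBayes of limma 3.58.1 (4 group means) and Benjamini-Hochberg adjusted over all of them. A probe counted as well above background when most of its spots carried the flag. A bound sets the brighter group's mean against, per array, the higher of the probe's own signal and the lowest signal among probes well above background. The fits were tested on simulated data with changes of known size. Between 33.28% and 44.38% of probes per array were well above background, no spot was saturated, and the number of arrays limits the precision.

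Alternatives were 5 other scalings, other filters on dim probes, fits to only the groups compared, the replicate number or slide as a block, each array left out in turn, and other thresholds of the rule. Arrays with the same number correlated at -0.099 to 0.191 in their deviations from the group means, so the numbers were not taken as pairing them. Named probes were the 6 with the largest fall, the 6 recovered with the largest difference from 2 weeks, the 6 that stayed low with the largest difference from 0 weeks, those sharing at least 20 bases with another probe, and those just inside and outside each threshold. CUST_OEV3_049898, CUST_OEV3_058205, CUST_OEV3_038513, CUST_OEV3_051447, CUST_OEV3_060068 and the probes with neighbouring ID numbers were chosen after their values were seen. The planned naming of probes by protein matches could not be run, since no protein table was given, and the cell type marker lists were therefore not used.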

Additional observations from a re-analysis of the deposited data

How the results depend on the processing

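The 34 members lower at 10 weeks than at 0 weeks were 37 to 47 under the other scalings, 26 with no filter, and 14 when only probes well above background on all 12 arrays were kept, which leaves 18 members to test. The 25 higher at 10 weeks than at 2 weeks were 16 with the percentile over all probes, 12 with quantile normalization, 12 with cyclic loess, 12 in the deposited log2 values, 9 with normexp and 4 with the filter on all 12 arrays. The offset of 50 in normexp by construction shrinks changes of dim probes. With arrays left out in turn these counts ranged from 23 to 35 and from 17 to 35, and the count of 0 between 1 week and 0 weeks from 0 to 1, the 1 arising without 2-week replicate 1. In the comparisons the rule used, the 58 lower at 2 weeks than at 0 weeks were 34 with normexp, 31 with no filter, 17 with the filter on all 12 arrays, 36 when only the groups compared were fitted, and 26 to 59 with arrays left out, the fewest without 0-week replicate 1 or 2-week replicate 3 (26 each), and 27, 29 and 38 without 2-week replicate 1, 0-week replicate 2 and 0-week replicate 3. The 11 lower than at 1 week were 6 with quantile normalization, 6 in the deposited values, 5 with normexp, 3 with no filter, 6 with the filter on all 12 arrays, 2 with only the groups compared, 30 with slide as a random block, and 3 (without 1-week replicate 3) to 40 (without 2-week replicate 2) with arrays left out. With the replicate block the 5 counts were 33, 24, 0, 46 and 8, and no count moved by more than 1.5 times. The number of probes the rule finds was 101 on the scaled processed signal, 67 of them shared with the 71, 8 with normexp, 19 with a size of 1.5, 26 with a level of 6, and 66 to 194 with arrays left out. The recovered probes numbered 41, 2, 3 and 2 in these settings and 10 to 59 with arrays left out, with 22 each without 1-week replicate 2 and without 2-week replicate 1, and 59 without 2-week replicate 2. Those that stayed low numbered 5 with normexp, 9 with a size of 1.5, 19 with a level of 6 and 25 to 58 with arrays left out. The undecided numbered 1, 7, 5 and 20 to 77. The largest counts of all 3 classes arose without 2-week replicate 2, where the rule also found the most probes, 194. The causes were not tested. Signal over background limits the members most at 2 weeks, where 16 had only a bound.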
